A study of Mus musculus with 24 samples.

Results

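Leptin and 7 further adipokine genes were followed in the inguinal fat of young mice weaned on time or late. Adipokines are proteins that fat tissue secretes into the blood or onto neighbouring cells. The genes were taken by symbol from the deposited table: Lep, Adipoq, Retn, Cfd, Rbp4, Nampt, Apln and Rarres2. All 8 were found among the 16118 genes listed, and all 8 were tested. The tissue was inguinal white adipose tissue, the subcutaneous fat depot of the groin, and poly(A) RNA was sequenced from 24 mice, each giving 1 library. Each of 6 groups held 4 animals. A male and a female group were collected at postnatal day 21 (p21), and for each sex there was a p28 group (day 28) with standard weaning (SW) and another with delayed weaning (DW). Standard weaning meant separation from the mother at p21, and delayed weaning meant that the pups stayed with her. The labels give no strain, and no genotype or drug distinguishes the groups. No group had been separated from the mother before p21. The p21 libraries also carry the label SW and are named p21 here. The series asks how the fat depot of each sex is remodelled when breastfeeding is prolonged.

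Leptin, the product of Lep, is released by adipocytes in proportion to their fat store and signals energy supply to the hypothalamus through the receptor Lepr. Adiponectin (Adipoq), resistin (Retn) and complement factor D, also called adipsin (Cfd), are abundant adipocyte products in the mouse. Adiponectin sensitises other tissues to insulin, resistin opposes insulin action in mice, and adipsin is the protease that starts the alternative complement pathway. Rbp4 carries retinol in the blood, Nampt makes the NAD precursor nicotinamide mononucleotide, Apln encodes the peptide apelin that acts on the receptor Aplnr, and Rarres2 encodes chemerin, which attracts immune cells through Cmklr1.

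Recovered reads per library ranged from 57600711 to 302145813. Levels are given in the authors' normalised unit, which is reads divided by a factor of each library. The 3 libraries least like the rest were DW female 83, p21 male 53 and DW female 82, whose median correlations with the other libraries were 0.961, 0.962 and 0.970, against 0.975 or more in all others. The p21 male also had the fewest genes detected, 14054. Some of the results below are given with and without these animals. The adipocyte identity of the tissue was plain in every library. The summed level of 12 adipocyte marker genes ran from 27510 to 45754, against 263 to 823 for 6 macrophage markers and 364 to 771 for 6 progenitor markers. Skeletal muscle markers, which belong to no fat cell, ranged from 3.97 to 6841 in sum. In males of both weaning groups limma called 6 of the 7 higher than at p21 (adjusted p-value under 0.05). Of all genes it called 6.9% higher in SW males and 8.86% in DW males. In females it called 0 of the 7, but the sums were 362 to 3226 after SW and 3.97 to 1982 after DW. The median log2 difference of DW from SW was -3.33 in females and -0.31 in males. The part of these markers in the results of either sex was not tested. Mammary epithelial markers reached 350.04 in females and at most 40.3 in males.

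Per kilobase of transcript, adipsin had the highest median of the 8 over all animals and apelin the lowest. The median level per kilobase over the 24 animals was 2197 for Cfd, 1007 for Adipoq and 758 for Retn. It was 187 for Rbp4, 160 for Rarres2, 59.7 for Lep, 34.4 for Nampt and 9.42 for Apln. These lengths were those of the principal transcript in GENCODE M21, and the place of Rarres2 depends on them, since over all its annotated exons its median was 47.8 per kilobase, below Lep. Ranges over animals overlapped between Cfd (664 to 4291) and Adipoq (609 to 1182), and between Adipoq and Retn (534 to 1599). Those of Rbp4 (102 to 253) and Rarres2 (109 to 248) also overlapped, as did those of Lep (17.5 to 113) and Nampt (27.3 to 89.5). Cfd overlapped Retn as well, and the highest Lep lay above the lowest Rbp4 and the lowest Rarres2. Together the 8 genes made up 0.400% ± 0.0421 (SD, n = 4) of all recovered reads in p21 males and 0.579% ± 0.0856 in SW females, the lowest and highest group means.

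**Figure D1:**
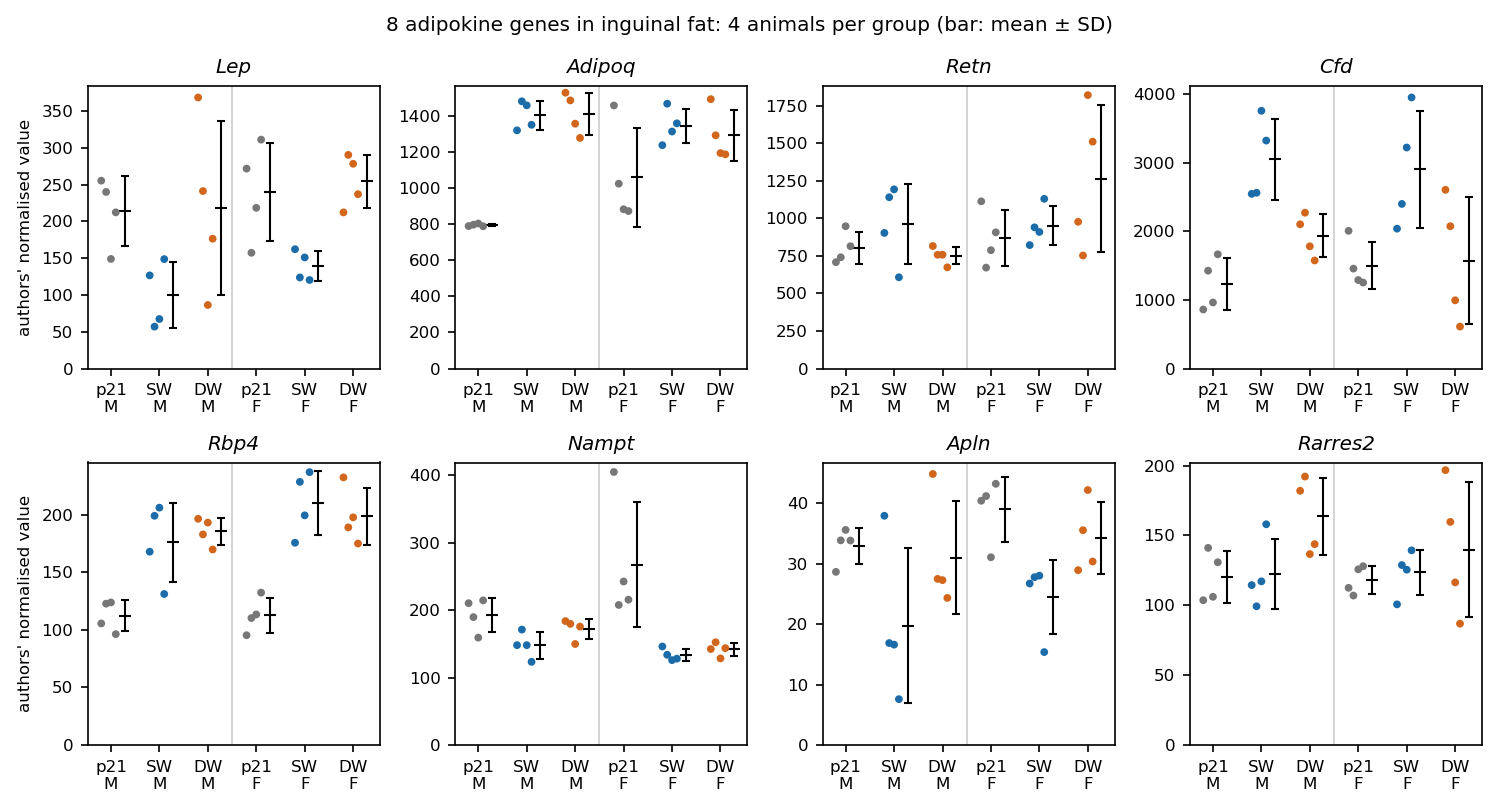
Normalised level of each of the 8 genes (vertical axis, authors' unit, starting at 0) in every animal, by group (horizontal axis: p21 grey, SW blue, DW orange; M male, F female); bars give mean ± SD of 4 animals. Lep is lower in SW than in DW females without overlap, Adipoq lies between 787 and 803 in all 4 p21 males, and 2 DW females stand high for Retn and low for Cfd.

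The week from p21 to p28 under standard weaning was examined first. Over it, the leptin gene fell 2.26-fold in males, while the genes of adiponectin, adipsin and the retinol carrier rose 1.76-fold, 2.53-fold and 1.55-fold. In males limma called 5 of the 8 genes at an adjusted p-value under 0.05, 3 higher and 2 lower, against 11.9% of the 16005 genes tested (6.9% higher and 4.97% lower). In females it called 2, Rbp4 higher and Nampt lower, against 11.6% of genes (7.39% higher and 4.23% lower). Without p21 male 53 the male count was 4, and 1442 of the 16005 genes were called. All changes here are differences of log2(value + 1) with their standard errors. The limma p-values weigh each difference against a spread between animals that is pooled over all 6 groups and moderated across genes. The median change of the 8 genes was 0.12 in males and 0.10 in females, against 0.01 over all genes tested in each sex.

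Leptin, at GRCm38 chromosome 6:29060220-29073877 on the plus strand, stood at 256, 240, 149 and 212 in the 4 p21 males. In the 4 SW males it was 127, 57.0, 67.3 and 149. Every SW male lay below the lowest p21 male, though SW male 124 and p21 male 53 nearly touched. The change was -1.18 ± 0.335 (SE), a 2.26-fold fall (limma adjusted p = 0.0255). In bulk tissue, a different number of cells of a type and a different amount of RNA per cell cannot be told apart. It did not pass without SW male 84 (-0.95, adjusted p = 0.0936), SW male 85 (-1.03, adjusted p = 0.0863), p21 male 37 (-1.08, adjusted p = 0.0618) or p21 male 38 (-1.11, adjusted p = 0.0586), nor in a fit limited to the compared groups (adjusted p = 0.0586). In females Lep was 272, 157, 219 and 311 at p21 and 162, 124, 151 and 120 after SW. The female groups overlapped, p21 female 36 lying below SW female 73, and the change of -0.74 ± 0.335 did not pass (limma adjusted p = 0.175). The change in males minus that in females was -0.43 (95% interval -1.42 to 0.55) and did not pass.

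Adiponectin lies at chromosome 16:23146536-23158028 on the plus strand. Its p21 males were nearly identical at 788, 796, 803 and 787, and its SW males were 1318, 1479, 1457 and 1349. The male groups were far apart, and the rise was 0.82 ± 0.137 (limma adjusted p = 0.000663). Females started higher and less evenly, at 1456, 1023, 882 and 872, against 1236, 1466, 1312 and 1357 after SW. The female with 1456 was p21 female 30, which overlapped the SW range. The female change of 0.37 ± 0.137 did not pass (limma adjusted p = 0.0842), but it was 0.54 and passed without p21 female 30 (adjusted p = 0.00434), and it passed with DESeq2 (adjusted p = 0.0467). Beside the male rise, 3 of 12 adipocyte markers rose and none fell in SW males, against 6.9% of all genes called higher and 4.97% lower. The sum of the markers went from 27510 to 32990 at p21 to 31861 to 42145 after SW. In SW females 0 of the 12 rose and 1 fell, Pparg, by -0.76 ± 0.158 (limma adjusted p = 0.00235), against 7.39% of all genes higher and 4.23% lower. The part of these markers in the Adipoq results was not tested.

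Adipsin, at chromosome 10:79890853-79892655 on the plus strand, showed the largest rise among the 8 in SW males. Levels were 862, 1428, 964 and 1667 at p21 and 2549, 2565, 3762 and 3327 after SW. No SW male came near the p21 range, and the change was 1.34 ± 0.339 (2.53-fold, limma adjusted p = 0.0133). The p21 females had 2009, 1458, 1291 and 1255, and the SW females 2041, 2402, 3226 and 3957. The groups of females did not overlap, though p21 female 30 and SW female 73 were adjacent, and the change of 0.93 ± 0.339 did not pass (limma adjusted p = 0.0823). It passed with DESeq2 (adjusted p = 0.0202) and in a fit limited to the compared groups (adjusted p = 0.0297).

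The retinol carrier Rbp4, at chromosome 19:38116629-38125281 on the minus strand, was the 1 member called against p21 after either weaning in both sexes. It rose from 106, 123, 124 and 96.3 to 168, 199, 206 and 131 in males, a change of 0.63 ± 0.136 (limma adjusted p = 0.00465). In females it rose from 95.4, 110, 113 and 132 to 176, 229, 200 and 237, a change of 0.89 ± 0.136 (limma adjusted p = 0.000122). Neither sex had an SW animal within its p21 range, and every refit without 1 animal called the gene in both.

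Nampt, at chromosome 12:32819545-32853349 on the plus strand, moved the other way in females. The p21 females had 405, 208, 243 and 216, the first value again belonging to female 30, and the SW females 146, 134, 126 and 128. All SW females were below all p21 females, and the change was -0.95 ± 0.155 (limma adjusted p = 0.000244). Without female 30 it was -0.73 and still passed (adjusted p = 0.000328). In males the levels were 211, 190, 159 and 215 at p21 and 148, 171, 148 and 123 after SW. These overlapped through p21 male 53 and SW male 84, and the change of -0.39 ± 0.155 did not pass (limma adjusted p = 0.106). The difference between the sexes was 0.56 (95% interval 0.11 to 1.01) with an unadjusted limma p of 0.0181, and it did not pass adjustment (adjusted p = 0.407).

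Apelin, at chromosome X:48025146-48034853 on the minus strand, was the weakest call in males. Levels were 28.7, 33.9, 35.6 and 33.9 at p21 and 38.0, 16.9, 16.6 and 7.60 after SW. SW male 78 was above every p21 male while the other 3 were below, and the change was -0.91 ± 0.294 (limma adjusted p = 0.0460). The call ended without any 1 of 7 of the 8 animals, SW male 78 being the exception, and the change was -0.56 without SW male 124 (adjusted p = 0.172) and -0.87 to -0.98 without the 6 others (adjusted p = 0.0560 to 0.0970). It also missed the threshold with edgeR (adjusted p = 0.120), with DESeq2 (adjusted p = 0.0738) and in a fit limited to the compared groups (adjusted p = 0.180). Females went from 40.5, 41.2, 31.1 and 43.3 to 26.7, 27.8, 28.0 and 15.4, with no overlap, and the change of -0.68 ± 0.294 did not pass (limma adjusted p = 0.156).

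Resistin and chemerin gave no call in either sex. Retn, at chromosome 8:3655770-3660110 on the plus strand, changed by 0.22 ± 0.233 in males and 0.14 ± 0.233 in females (limma adjusted p = 0.587 and 0.777). Rarres2, at chromosome 6:48569696-48572789 on the minus strand, changed by 0.01 ± 0.192 and 0.06 ± 0.192 (limma adjusted p = 0.976 and 0.903). The p21 ranges were 672 to 1114 for Retn and 104 to 141 for Rarres2, and the SW ranges were 608 to 1194 and 99.3 to 158. The exons of Rarres2 overlap those of Lrrc61 on the opposite strand. The strand setting of the counting was not given in the sources used here, so reads of the pair cannot be told apart, and the Rarres2 values are uncertain to that extent (Lrrc61 was at 16.5 to 35.0).

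**Figure D2:**
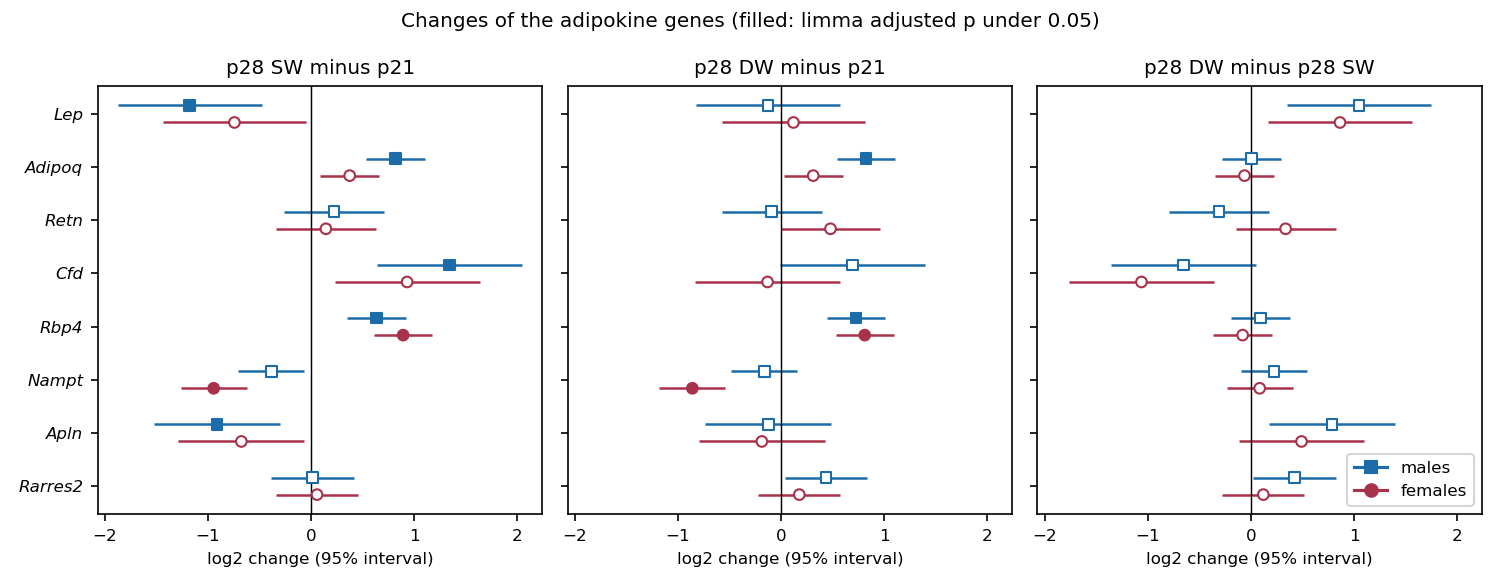
Change of each gene (rows) as a difference of log2(value + 1) with its 95% interval (horizontal axis) for SW against p21, DW against p21 and DW against SW, males as blue squares and females as red circles; filled symbols passed an adjusted p-value of 0.05 by limma. Lep lies left of 0 for SW against p21, near 0 for DW against p21 and right of 0 for DW against SW, where no symbol is filled.

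The DW animals were then set against the same p21 animals. Adiponectin and the retinol carrier rose in males, and in females the retinol carrier rose and Nampt fell. That was 2 of 8 genes in males against 15% of genes tested (8.86% higher), and 2 of 8 in females against 12.1% (5.95% higher and 6.16% lower). Leptin was not among them: DW males had 369, 241, 86.4 and 177, DW females 212, 291, 279 and 237. DW male 79 was above and DW male 86 below all p21 males, whereas the DW females lay within the p21 range. The changes were -0.13 ± 0.335 in males (95% interval -0.82 to 0.57) and 0.12 ± 0.335 in females (95% interval -0.58 to 0.82), with limma adjusted p = 0.838 and 0.861.

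Adipoq in DW males was 1527, 1484, 1355 and 1276, all above every p21 male, a rise of 0.83 ± 0.137 (limma adjusted p = 0.000683). In DW females it was 1491, 1291, 1193 and 1186, a change of 0.31 ± 0.137 that did not pass (limma adjusted p = 0.139) and was 0.48 without p21 female 30 (adjusted p = 0.0138). Rbp4 was 197, 183, 193 and 170 in DW males and 233, 189, 198 and 175 in DW females. No DW animal lay within the p21 range of its sex, and the rises were 0.73 ± 0.136 in males and 0.81 ± 0.136 in females (limma adjusted p = 0.00167 and 0.000625). Nampt was 142, 153, 129 and 144 in DW females, below all p21 females, a change of -0.86 ± 0.155 (limma adjusted p = 0.00105). That call ended in a fit limited to the compared groups (adjusted p = 0.0568). Without DW females 82 and 83 the female changes were -0.80 for Nampt and 0.90 for Rbp4, and both passed (limma adjusted p = 0.0131 and 0.00227). In DW males Nampt was 184, 180, 150 and 176, overlapping the p21 males, with a change of -0.16 ± 0.155 (limma adjusted p = 0.521).

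Cfd and Apln, which had moved in SW males, were not called after DW. Cfd in DW males was 2105, 2274, 1784 and 1577, a change of 0.69 ± 0.339 from p21 (limma adjusted p = 0.175). The lowest of these lay under the highest p21 male. In DW females the Cfd change was -0.13 ± 0.339 (limma adjusted p = 0.850), and it turned to 0.66 without females 82 and 83 (adjusted p = 0.175). Apln in DW males was 44.9, 27.5, 27.3 and 24.4, a change of -0.12 ± 0.294 (limma adjusted p = 0.821). DW females had Apln at 29.0, 35.6, 42.2 and 30.4, a change of -0.19 ± 0.294 (limma adjusted p = 0.734). Rarres2 changed by 0.44 ± 0.192 in DW males (limma adjusted p = 0.130) and by 0.18 ± 0.192 in DW females (adjusted p = 0.591). Without DW females 82 and 83 the female Rarres2 change was 0.58 and passed (adjusted p = 0.0456), so 3 of 8 genes were then called. That fit called 1392 of the 16005 genes tested, 739 higher and 653 lower. The SW and DW comparisons share their p21 animals, and their values are set side by side for that reason only.

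The direct comparison of delayed with standard weaning is the one the series is about. Leptin was on average 2.07-fold higher in DW than SW males and 1.82-fold higher in DW than SW females, apelin was higher in both sexes by smaller folds, and adipsin was lower in both. None of the 8 genes passed the adjusted threshold in either sex with limma, edgeR or DESeq2, against 0.256% of genes called by limma in males and 1.27% in females. At an unadjusted p under 0.05 limma counted 3 members in males and 2 in females, against 6.94% and 18.9% of genes, and edgeR and DESeq2 each counted 4 and 2. The median of the 8 changes was 0.16 in males and 0.10 in females, against 0.00 and -0.02 over all genes.

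The male difference in Lep was 1.05 ± 0.335 with a 95% interval of 0.35 to 1.75 (limma adjusted p = 0.336). DW males ran from 86.4 to 369 and SW males from 57.0 to 149, so the groups overlapped through DW male 86. The difference was 1.43 and passed without that male (adjusted p = 0.0486), and it was 0.74 without DW male 79. In females the difference was 0.86 ± 0.335 with an interval of 0.17 to 1.56 (limma adjusted p = 0.203). All 4 DW females (212 to 291) were above all 4 SW females (120 to 162). Lep and Apln were the 2 members whose female groups did not overlap in the upward direction, which held for 2.27% of genes tested. Without DW females 82 and 83 the Lep difference was 0.84 with an adjusted p of 0.975, from 2 DW females only.

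The p28 animals other than SW male 124 carry numbers from 73 to 87 without a gap. They were divided here into a run from 73 to 80 and a run from 81 to 87. The labels give neither this division nor a batch. Within the runs the male Lep difference was 1.23 (2 DW and 1 SW animals) and 0.99 (2 and 2), and the female difference was 0.77 (2 and 3) and 1.09 (2 and 1). DW was higher in all 4 of these comparisons. SW male 124, whose Lep of 149 was the highest of the SW males, belongs to neither run and is not in these values. The Lep difference in males minus that in females was 0.18 (95% interval -0.80 to 1.17, limma adjusted p = 0.928).

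Lep was also set against other adipocyte genes, and SW had the lowest mean in each sex by either measure. Lep as a percentage of Adipoq was 27.0 ± 6.06 (SD, n = 4) in p21 males, 7.28 ± 3.57 in SW males and 15.2 ± 7.32 in DW males. In females it was 23.6 ± 8.94, 10.5 ± 2.22 and 20.0 ± 4.11. The SW females (8.45 to 13.1) did not reach the lowest DW female (14.2), while SW males (3.85 to 11.0) and DW males (6.37 to 24.1) overlapped. As a percentage of the summed adipocyte markers, Lep was 0.693 ± 0.105, 0.269 ± 0.154 and 0.570 ± 0.307 in p21, SW and DW males. The female values were 0.657 ± 0.178, 0.410 ± 0.0936 and 0.793 ± 0.155. Of the 12 adipocyte markers limma called 0 between DW and SW in either sex (2 in males and 4 in females at an unadjusted p under 0.05), edgeR called 0, and DESeq2 called 0 in males and 1 in females. Their sums were 31861 to 42145 in SW males against 35525 to 39869 in DW males, and 30734 to 37801 in SW females against 29712 to 36083 in DW females.

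**Figure D3:**
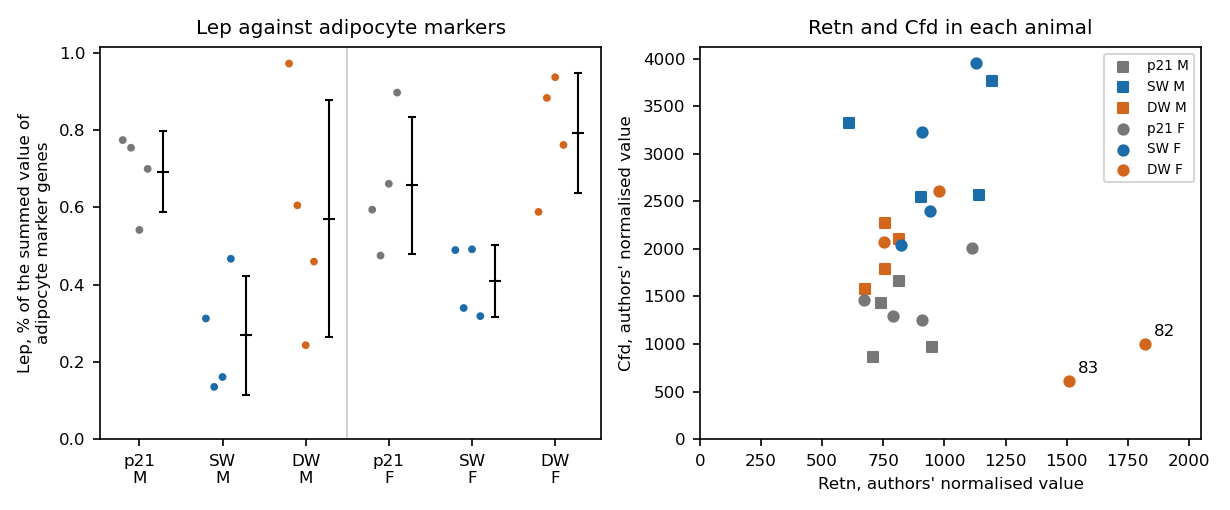
Left, Lep in each animal as a percentage of the summed level of the adipocyte marker genes (vertical axis) by group, with mean ± SD of 4 animals; right, Cfd level (vertical axis) against Retn level (horizontal axis) in each of the 24 animals, in the authors' unit. SW animals sit at 0.135% to 0.492% on the left, and on the right DW females 82 and 83 lie apart from the other 22 animals, with high Retn and low Cfd.

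Adipsin went the other way. All 4 DW males were below all 4 SW males for Cfd, and it was the 1 member to separate downward there, against 3.4% of genes tested. The male difference was -0.65 ± 0.339 (limma adjusted p = 0.759). In females it was -1.06 ± 0.339 (limma adjusted p = 0.133), from DW values of 2609, 2077, 995 and 612. The 2 low values were those of females 82 and 83, and without them the difference was -0.27 ± 0.290 (adjusted p = 1.00). Leaving out DW female 76 or 77 instead made it pass (-1.38, adjusted p = 0.0150, and -1.27, adjusted p = 0.0442). Those 2 fits called 1996 and 871 of the 16005 genes tested, against 204 with all animals. Within the run of animals 73 to 80 the female difference was -0.11, and within 81 to 87 it was -2.34, against -0.22 and -0.89 in males.

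The same 2 females held the highest resistin of the series. Retn in DW females was 977, 753, 1821 and 1511, against 822, 941, 910 and 1130 in SW females. Females 82 and 83 lay above every other animal, and the group difference was 0.34 ± 0.233 (limma adjusted p = 0.417) with them and -0.14 ± 0.227 without (adjusted p = 1.00). The ratio of Retn to Cfd was 0.362 to 2.47 in DW females and 0.282 to 0.403 in SW females. DW males had Retn at 816, 758, 758 and 674, a difference from SW males of -0.31 ± 0.233 (limma adjusted p = 0.910). Within the DW females chemerin was lowest in the same pair: Rarres2 was 197, 160, 116 and 86.9 in DW females and 101, 129, 126 and 139 in SW females. The Rarres2 difference was 0.12 ± 0.192 with all animals (adjusted p = 0.752) and 0.53 ± 0.178 without the pair (limma adjusted p = 0.583). In males Rarres2 was 182, 192, 137 and 144 after DW and 115, 99.3, 117 and 158 after SW, a difference of 0.42 ± 0.192 (limma adjusted p = 0.694).

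For apelin the male difference was 0.79 ± 0.294 and the female difference 0.49 ± 0.294 (limma adjusted p = 0.497 and 0.350). In males it was 1.16 and passed without SW male 78 (adjusted p = 0.0438), and it was 0.43 without SW male 124. Within the runs it was -0.11 and 0.59 in males and 0.21 and 1.17 in females, so the males of the first run did not share the direction. Adiponectin, Rbp4 and Nampt, called between ages, differed little between weaning groups: 0.01, 0.10 and 0.23 in males and -0.06, -0.08 and 0.09 in females. The 95% intervals of the Adipoq differences were -0.28 to 0.29 and -0.35 to 0.22, those of Rbp4 -0.19 to 0.38 and -0.36 to 0.20, and those of Nampt -0.10 to 0.55 and -0.24 to 0.41.

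The authors' deposited table gives Lep a log2 fold change of 1.13 for DW against SW males, with 0.000502 in the column labelled as adjusted p, and 0.87 with 0.00726 for females. In that column of the authors' deposited table Cfd also stands under 0.05 in both sexes (0.0391 and 0.00543), as do Apln and Rarres2 in males (0.0332 and 0.0391). That column of the authors' deposited table is under 0.05 for 1223 genes in males and 2730 in females. DESeq2 on the recovered reads gave an unadjusted p under 0.05 for 1235 and 2857 genes and an adjusted p under 0.05 for 111 and 295. Its unadjusted p for Lep was 0.000428 and 0.00536, and its adjusted p was 0.0552 and 0.104. The deposited column is thus nearer in size to unadjusted than to adjusted values, and whether it was adjusted is not known here.

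Males and females were compared within each age and weaning group. No member passed the adjusted threshold at p21, after SW or after DW by limma, against 0.356%, 3.54% and 2.46% of genes called. At an unadjusted p under 0.05 limma counted 2, 0 and 1 members, against 8.6%, 9.16% and 19.7% of genes. edgeR called 0 in each, while DESeq2 called 0 at p21 and after SW and 1 after DW. The largest difference was in Retn after DW, -0.67 ± 0.233 in males against females (limma adjusted p = 0.131; DESeq2 -0.77, adjusted p = 0.0241). It was -0.89 and passed without DW female 77 (adjusted p = 0.0211), and it was -0.19 without females 82 and 83. The fit without DW female 77 called 1507 of the 16005 genes tested, against 394 with all animals. At p21 the male minus female difference was -0.38 ± 0.137 for Adipoq, with no overlap (limma adjusted p = 0.431), and -0.42 ± 0.155 for Nampt (adjusted p = 0.444). Lep in males minus females was -0.15, -0.58 and -0.39 at p21, after SW and after DW, each ± 0.335. Tests of the sex difference in the weaning effect and in the age effects called 0 members by limma, edgeR and DESeq2, against 0.0187% of genes for weaning and 1.03% and 0.0687% for age under SW and DW. At an unadjusted p under 0.05 limma counted 0, 2 and 2 members, against 5.09%, 8.15% and 17% of genes, the latter being Adipoq and Nampt both times.

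Levels of the members were also compared with each other over the 24 animals, which share libraries, groups and scaling. Rbp4 and Nampt ran opposite to each other (Pearson r = -0.74 on log2(value + 1)), and Adipoq and Rbp4 ran together (r = 0.72). After group means were removed these were -0.25 and 0.05. Cfd and Rarres2 behaved the other way, at 0.44 over all animals and 0.82 within groups, and females 82 and 83 were low for both. Lep and Apln had r = 0.59, and 0.17 within groups.

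The genes whose levels most resembled a member's were taken by the highest r among tested genes. For Lep these included Rnd3 (r = 0.82) and Slc6a13 (0.77), a GABA transporter. For Adipoq they were Map1lc3b (0.90), Lyplal1 (0.90) and Vnn3 (0.90). Cfd was closest to Apoe (0.95), the lipid-carrying apolipoprotein E, then Mustn1 (0.93) and Bckdha (0.92). Rbp4 was closest to Fblim1 and Orm1 (both 0.92), and Nampt to Cpne9 (0.92) and Hrk (0.91), both of which were barely expressed, and to Nfe2l2 (0.90). Retn was closest to Snapc5 (0.86), Apln to Myadm (0.85) and Rarres2 to Parp3 (0.85).

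The start regions of 4 members are shown because they were called under standard weaning in males: Lep and Apln fell, Adipoq and Rbp4 rose. Cfd rose there too, and its window, which held none of the motifs searched, is not printed. Each is the 250 bases before the RefSeq start on GRCm38.p6, read 5′ to 3′ on the gene's strand, with capitals marking matches on either strand to any motif searched: TTNNGNAA (C/EBP), GGGCGG (Sp1), AGGTCA (a nuclear receptor element), TATAAA (the TATA box), ACGTG (hypoxia element), CACGTG (the E-box, which overlaps the hypoxia element) and TGTTCT (a glucocorticoid receptor element).
Lep (chr6:29059971-29060220, plus strand): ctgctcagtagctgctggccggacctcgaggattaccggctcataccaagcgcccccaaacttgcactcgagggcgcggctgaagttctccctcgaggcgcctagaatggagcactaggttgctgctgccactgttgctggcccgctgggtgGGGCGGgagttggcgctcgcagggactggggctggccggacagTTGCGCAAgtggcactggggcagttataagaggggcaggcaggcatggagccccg
Apln (chrX:48034854-48035103, minus strand): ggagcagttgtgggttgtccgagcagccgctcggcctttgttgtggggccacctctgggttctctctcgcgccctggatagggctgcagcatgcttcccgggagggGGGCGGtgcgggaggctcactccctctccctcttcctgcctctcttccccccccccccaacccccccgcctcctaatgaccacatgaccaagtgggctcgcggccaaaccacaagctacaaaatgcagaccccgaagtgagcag
Adipoq (chr16:23146286-23146535, plus strand): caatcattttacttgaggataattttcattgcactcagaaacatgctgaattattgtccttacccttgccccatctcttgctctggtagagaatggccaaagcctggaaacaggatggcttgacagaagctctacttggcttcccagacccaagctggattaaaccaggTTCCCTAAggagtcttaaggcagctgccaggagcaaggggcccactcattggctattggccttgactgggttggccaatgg
Rbp4 (chr19:38124812-38125061, minus strand): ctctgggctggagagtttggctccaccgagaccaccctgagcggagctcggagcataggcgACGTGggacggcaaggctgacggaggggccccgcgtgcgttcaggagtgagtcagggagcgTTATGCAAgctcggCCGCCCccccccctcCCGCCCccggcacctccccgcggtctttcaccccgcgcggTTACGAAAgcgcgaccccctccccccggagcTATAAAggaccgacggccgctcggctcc
In the window of Lep the C/EBP letters stand at positions -55 to -48 and the Sp1 letters at -98 to -93, counted back from the start. Apln has the Sp1 letters at -144 to -139, and Adipoq the C/EBP letters at -81 to -74. Rbp4 has C/EBP letters at -128 to -121 and -59 to -52, a TATAAA at -28 to -23, and Sp1 and hypoxia letters. RefSeq held windows for 7 of the 8 members, 8 in all since Rbp4 has 2. C/EBP letters were in windows of Adipoq, Lep and Rbp4 and in 36.8% of all 32851 promoters, and Sp1 letters were in those of Apln, Lep, Nampt and Rbp4 and in 32.7%. TATAAA (12.4%) was in Rbp4 and not in the other members, AGGTCA (14%) in Nampt, and ACGTG (16.6%) in Nampt and Rbp4. CACGTG (6.02%), TGTTCT (16.1%) and 2 copies of AGGTCA 1 base apart (0.0335%) were in none of these windows.

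Receptors and partners of the adipokines had calls between ages. Of 14 tested genes (Ttr was not in the table) limma, edgeR and DESeq2 called 0 between DW and SW in either sex, where limma called 0.256% of all genes in males and 1.27% in females, with 2 in each sex at an unadjusted p under 0.05 by limma and 1 by the other tools. Against p21 limma called 2 higher in SW males, 2 in SW females, 7 in DW males and 3 in DW females, and none lower. The shares of all genes called higher were 6.9%, 7.39%, 8.86% and 5.95% in that order, and 11.9%, 11.6%, 15% and 12.1% were called in either direction. DESeq2 called 5 and edgeR 3 in SW males, edgeR called 5 in DW males, and limma called 1 in DW females without females 82 and 83. Without that pair limma called 739 of the 16005 genes tested higher in DW females. The list's median change was 0.42, 0.16, 0.39 and 0.11 in that order, against 0.01, 0.01, 0.02 and 0.00 over all genes. Aplnr, the apelin receptor, was 51.8 ± 28.2 (SD, n = 4) at p21, 102 ± 15.5 after SW and 114 ± 16.4 after DW in females. Its rise was 1.08 ± 0.279 (SE) after SW (limma adjusted p = 0.0125) and 1.23 ± 0.279 after DW (adjusted p = 0.00600). The SW call ended without p21 female 30 (0.96 to 1.40 over the refits without 1 animal), and the DW call ended without females 82 and 83 (1.11, adjusted p = 0.0533). In DW males Aplnr rose by 1.07 ± 0.279 (adjusted p = 0.0140). Lepr, the leptin receptor, rose by 0.63 ± 0.167 in DW males (limma adjusted p = 0.0149), from 4.79 ± 0.956 to 7.94 ± 1.02.

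Complement partners of adipsin were on the same list. C3ar1, the receptor for the C3a fragment, rose in all 4 comparisons with p21: by 0.92 and 1.41 in SW males and females and by 1.00 and 1.22 in DW males and females, each ± 0.200 (limma adjusted p = 0.00482, 5.70e-05, 0.00256 and 0.000496). C3, the protein at the centre of the cascade, rose by 0.58 ± 0.179 in SW males (limma adjusted p = 0.0376), a call that held in 2 of 8 refits without 1 animal (0.52 to 0.69). Cfb, the partner that factor D cleaves, rose by 0.87 ± 0.204 in DW males (adjusted p = 0.00722) and by 0.63 ± 0.204 in DW females (adjusted p = 0.0474), the latter being 0.35 without females 82 and 83 (adjusted p = 0.416). The call in DW females held in 2 of 8 refits without 1 animal and in 1 of 7 other settings. Macrophages express C3ar1, and beside these changes 5, 4, 6 and 5 of 6 macrophage markers rose in the same 4 comparisons. Of all genes 6.9%, 7.39%, 8.86% and 5.95% were called higher there. The sum of the markers went from 263 to 433 at p21 to 536 to 823 at p28. Their part in the C3ar1 result was not tested. Cmklr1, the chemerin receptor, rose by 0.87 ± 0.223 and Cdh13, which binds adiponectin, by 0.72 ± 0.189 in DW males (limma adjusted p = 0.0126 and 0.0146). The Cmklr1 call ended without p21 male 53, at 0.66. Stra6l, a receptor for Rbp4, rose by 0.27 ± 0.0863 there (adjusted p = 0.0413) and passed in 3 of 8 refits (0.21 to 0.34).

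Genes upstream and downstream of the adipokines were called as follows. Against p21 limma called 11.9% of all genes in SW males, 15% in DW males, 11.6% in SW females and 12.1% in DW females. Between DW and SW it called 0.256% in males and 1.27% in females. Of 7 leptin signalling genes, Irs2 rose in SW males (0.73 ± 0.210, limma adjusted p = 0.0277) and Lepr in DW males, the first in 3 of 8 refits (0.57 to 0.95). With the other tools, edgeR and DESeq2 each called 1 of the 7 in DW females against p21, and DESeq2 called 2 in DW males. Between weaning groups limma, edgeR and DESeq2 called 0 of the 7 in either sex, limma having 0 in males and 2 in females at an unadjusted p under 0.05. Of 4 tested genes for adiponectin folding and release, Erp44, which retains adiponectin in the secretory pathway, fell in males, with changes of -0.29 ± 0.0933 after SW and -0.28 ± 0.0933 after DW (limma adjusted p = 0.0447 and 0.0471), calls that held in 2 of 8 refits (-0.35 to -0.21) and 1 of 8 (-0.33 to -0.22). Of 8 NAD genes around Nampt, Nmnat1, which makes NAD from the Nampt product, rose by 0.73 ± 0.161 in SW males and 0.57 ± 0.161 in DW males (adjusted p = 0.00523 and 0.0211), the second ending without p21 male 53, DW male 86 or DW male 87 (0.39 to 0.68 over the refits). Of the 8 NAD genes DESeq2 called 2 in SW males and 3 in DW males, and edgeR called 1 and 2. Of the 4 folding and release genes edgeR called 0 in SW males. In females, where Nampt fell, limma, edgeR and DESeq2 called 0 of the 8 NAD genes after SW or DW, with 0 and 1 at an unadjusted p under 0.05 by limma.

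Among other secreted factors of fat limma made 1 call between weaning groups. Of 23 tested genes (Asip was not in the table), Nnat was called higher in DW than SW females by limma, against 1.27% of all genes, while edgeR called 0 of the 23 and DESeq2 called 1. In males limma, edgeR and DESeq2 called 0, each with 2 at an unadjusted p under 0.05. Nnat, which encodes neuronatin, a membrane protein found in adipocytes, was 497 ± 259 (SD, n = 4) at p21, 125 ± 39.9 after SW and 309 ± 35.2 after DW in females. The weaning difference was 1.35 ± 0.318 (limma adjusted p = 0.0381). It did not pass without SW female 73, 74 or 81 or DW female 82 or 83 (1.13 to 1.51 over the refits), nor with a pseudocount of 0.1, TMM scaling, edgeR or a fit limited to the compared groups, and without females 82 and 83 it was 1.39 with an adjusted p of 0.414, from 2 DW animals. The change from p21 to SW in females was -1.92 ± 0.318 (adjusted p = 0.000290). In males Nnat was 360 ± 51.5, 221 ± 129 and 426 ± 117, and no male comparison was called.

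With age, the list split by gene. Angptl4, an inhibitor of lipoprotein lipase, rose by 0.79 ± 0.257 in SW females (limma adjusted p = 0.0484), a call that held in 3 of 8 refits. In males it rose by 1.21 ± 0.257 after SW and 1.24 ± 0.257 after DW (limma adjusted p = 0.00423 and 0.00332). Fndc5, the irisin precursor gene, which muscle also expresses, fell there, with changes of -1.09 ± 0.236 and -1.23 ± 0.236 (adjusted p = 0.00490 and 0.00199), and in DW females, with -1.38 ± 0.236 (adjusted p = 0.000749) and -1.07 without females 82 and 83 (adjusted p = 0.0196). Agt, which encodes angiotensinogen, fell in females, with changes of -1.72 ± 0.395 after SW and -2.23 ± 0.395 after DW (adjusted p = 0.00523 and 0.000962), and the latter was -1.34 without females 82 and 83 (adjusted p = 0.0264). Retnla, a resistin relative made by macrophages, rose by 1.31 ± 0.307 and 1.62 ± 0.307 in females (adjusted p = 0.00605 and 0.00168), beside the macrophage markers given above, and its second value was 1.03 without the pair (adjusted p = 0.0454). In SW males Retnla rose by 0.94 ± 0.307 (limma adjusted p = 0.0479), a call that held in 2 of 8 refits. Counts over the 23 genes were 3 higher and 1 lower in SW males, 5 and 2 in SW females, 3 and 1 in DW males, and 1 and 3 in DW females, the last becoming 4 and 2 without females 82 and 83. Over all genes the shares called higher and lower were 6.9% and 4.97% in SW males, 7.39% and 4.23% in SW females and 5.95% and 6.16% in DW females. In DW males 8.86% were called higher and 15% in either direction. Without females 82 and 83, 739 of the 16005 genes tested were called higher and 653 lower in DW females.

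For Nrg4 and Lcn2 limma called the difference between the sexes in the age change under SW. Both calls were lost with a pseudocount of 0.1, with TMM scaling, with edgeR and in a fit limited to the compared groups, and held in 2 of 6 other settings. Nrg4, a growth factor secreted by brown and other adipocytes, rose in SW males by 0.78 ± 0.134 (limma adjusted p = 0.000863) and in DW males by 0.50 ± 0.134 (adjusted p = 0.0171). It stood at 62.2 ± 13.1 in SW males against 38.7 ± 4.31 in SW females, a difference of 0.65 ± 0.134 (limma adjusted p = 0.00324) called in 8 of 8 refits. The male minus female difference of the age changes under SW was 0.87 ± 0.190 (limma adjusted p = 0.0196), and it did not pass without SW male 84, p21 female 30, SW female 73 or SW female 75 (0.78 to 1.01 over 16 refits). Lcn2, which encodes lipocalin 2, was 2.79 ± 0.674 in p21 males and 1.61 ± 1.20 in SW males, and 7.76 ± 2.33 and 15.3 ± 2.83 in the females. Lcn2 in males minus females was -2.72 ± 0.263 after SW and -1.81 ± 0.263 after DW (limma adjusted p = 1.7e-07 and 0.00012), each called in 8 of 8 refits. The male minus female difference of its age changes under SW was -1.54 ± 0.372 (limma adjusted p = 0.0455), and it passed in 5 of 16 refits (-1.82 to -1.32). Beside it, mammary epithelial markers summed to 40.7 to 156 in p21 females and 253 to 350.04 in SW females. In SW females limma called 5 of the 7 higher than at p21, against 7.39% of all genes. The markers summed to no more than 40.3 in any male. Their part in the Lcn2 result was not tested.

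**Figure D4:**
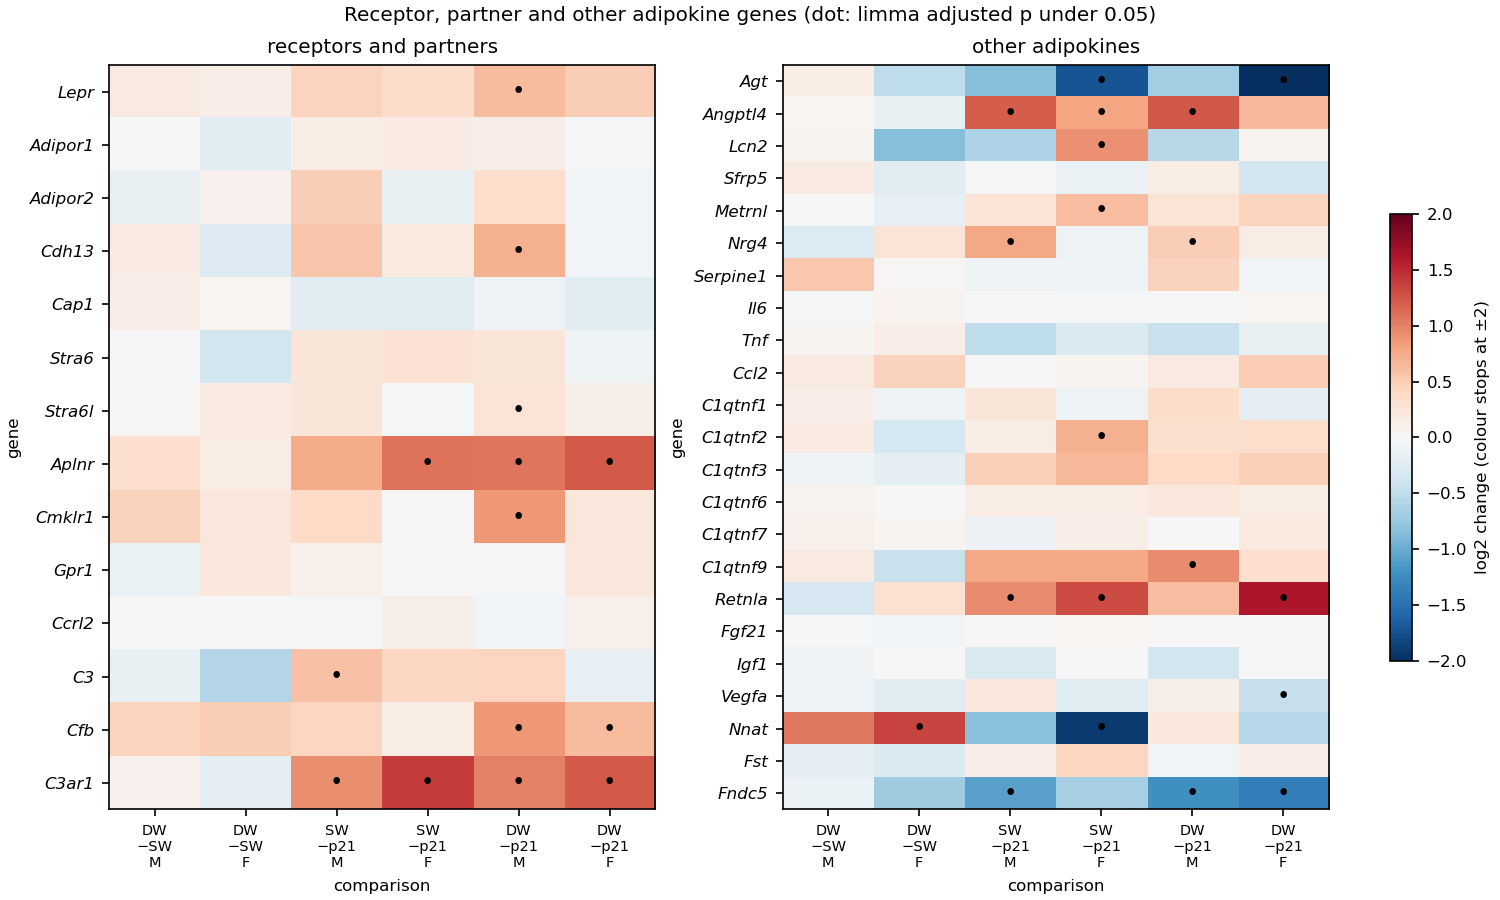
Change of each listed receptor or partner gene (left) and other adipokine gene (right), as a difference of log2(value + 1) by colour (red higher, blue lower, colour ending at 2 in either direction), in 6 comparisons (columns; M male, F female); dots mark an adjusted p-value under 0.05 by limma. Dots gather in the 4 comparisons with p21, and between DW and SW the only dot is that of Nnat in females.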

How the data were processed

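Poly(A) RNA libraries of 24 mice were compared, 4 per group, grouped by their labels for age, sex and weaning. Titles of p21 libraries that give another age were not followed. Each library is 1 animal. Per the submitters' processing notes, the tools were fastp, HISAT2, featureCounts and DESeq2 1.38.3 with mm10; strand setting and annotation are not given in the sources used here. The authors deposited a signal per gene: reads divided by a factor of each library. All values (100%, tolerance 0.01) were whole multiples of 1 read, so reads were recovered, which are not known to be independent molecules. Of 16208 rows, 90 repeats were left out. The authors also deposited log2 fold changes and p-values, used only where their table is named. No 2 libraries of a group agreed within sampling noise (smallest chi-square per degree of freedom 77.4 over 36 pairs).

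limma 3.58.1 (R 4.3.3, eBayes with trend) was fitted to log2(value + 1) of 16005 genes kept by filterByExpr (minimum count 10), with all 24 animals, 6 group terms and 18 residual degrees of freedom; p-values were Benjamini-Hochberg adjusted over all of them. This scale understates changes of low genes. The fit was tested on simulated data. Alternatives were a pseudocount of 0.1, no filter, TMM scaling (the authors' scaling was 0.972 to 1.04 of it), edgeR 4.0.16 and DESeq2 1.42.0 on recovered reads, only the compared groups, the run of animal numbers as covariate, leaving out each animal and, chosen after seeing the data, leaving out DW females 82 and 83. The genes, lists and motifs were chosen with earlier results of these data known. Named genes are the 8 members, any listed gene, and for each member up to 3 genes of highest correlation, of which 1 is not reported here. Gene positions are from GENCODE M21 (GRCm38), and none of the members' deposited starts equals its start there. Promoters are RefSeq's (GRCm38.p6).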

Additional observations from a re-analysis of the deposited data

Results flagged for a closer look

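In 48 groups of 4 animals, 8 genes by 6 groups, the gap between the highest or lowest animal and the next was compared with the range of the group. A gap above Dixon's critical value at the level of 0.05 was found in 2 groups, both for Apln, where chance alone gives about 1 in 20, or 2.4 of 48. DW male 79 had 44.9 against 24.4 to 27.5 in the other DW males (0.846 of the range). SW female 81 had 15.4 against 26.7 to 28.0 in the other SW females (0.897 of the range).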

How the results depend on the processing

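No paired analysis was possible because animal numbers are not shared between groups. Counts of members called stayed within 1.5 times of those reported in 186 of 200 recalculations. That rule compares counts, not which genes were called. For most comparisons the reported count was 0, which only a count of 0 could match. For member changes with an unadjusted p under 0.05, the call was unchanged in 436 recalculations, lost in 16 and gained in 13. None of these changes reversed. Smaller changes did turn sign: Cfd from p21 to DW in females (-0.13) was 0.08 with DESeq2, 0.07 with edgeR and 0.66 without DW females 82 and 83, Lep from p21 to DW in males (-0.13) was 0.02 with DESeq2, and Retn in DW against SW females (0.34) was -0.14 without that pair. In a fit limited to the compared groups the count was 3 for p21 to SW in males, 5 for p21 to SW in females and 1 for p21 to DW in females. Over all genes that fit called 822, 2406 and 495, against 1901, 1860 and 1938 in the main fit. With DESeq2 the count of members was 4 for p21 to SW in females and 1 for males against females after DW. DESeq2 called 1995 and 848 of all genes there, against 1860 and 394 in the main fit. The cause was not tested. Leaving out 1 animal at a time gave 0 to 1 for DW against SW in males and in females, 3 to 5 for p21 to SW in males, 2 to 3 for p21 to SW and p21 to DW in females, 2 for p21 to DW in males, and 0 to 1 for males against females after DW. Those refits leave fewer animals. Without DW females 82 and 83, DW against SW in females had 0 members and 7 genes of all called, against 204. A group of 4 limits precision more than depth does: at 57600711 reads or more no member was near the limit of detection.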
